A study of Mus musculus with 9 samples.

Results

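The mitochondrial ribosomal protein genes encode the protein part of the ribosome that works inside mitochondria. They were taken as every row of the deposited expression tables whose symbol is Mrpl or Mrps followed by a number and at most 1 letter. This gave 77 genes of 23951. Of these, 50 encode proteins of the large subunit and 26 proteins of the small subunit, and 1, Mrps36, is placed in neither here. Expression was measured by RNA sequencing in 9 libraries of mouse jejunal crypts, 3 from each of 3 groups. The double mutants carried Smad4f/f, Ex3f/+ and Villin-CreER(T2): floxed Smad4 alleles, a beta-catenin allele whose exon 3 can be removed, and a tamoxifen-dependent recombinase driven by the Villin promoter in the intestinal epithelium. The Smad4 KO mice carried Smad4f/f and Villin-CreER(T2). Both mutant groups were given tamoxifen daily for 4 days, and crypts were taken 1 day after the last dose. The controls are labelled only as control mice, with vehicle as the treatment in the labels and no injection in the design text, and are not stated to carry the recombinase. Tamoxifen and recombinase therefore cannot be told apart from genotype. Ages are not given.

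Mitochondria keep a small genome of their own, which encodes core subunits of the respiratory chain and of ATP synthase together with ribosomal and transfer RNAs. Its messages are translated by a dedicated ribosome, whose RNA is made in the mitochondrion and whose proteins are all encoded in the nucleus and imported. Many of these proteins descend from those of the bacterial ribosome, while others were added in mitochondria. Crypts hold the dividing stem and progenitor cells of the intestine along with Paneth cells. Smad4 carries BMP and TGF-beta signals to the nucleus, and beta-catenin that lacks exon 3 escapes degradation and keeps Wnt signalling on.

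The values are FPKM, fragments scaled to transcript length and library size, so they can be compared between genes as levels per length. There was a table for each mutant group, with the same control libraries in both and a separate normalization, and each mutant group was compared only within its table. The summed FPKM of a library ran from 568081 to 758719, and 11196 to 11935 genes reached 1 FPKM. The number of reads behind a value is unknown. The 50 highest genes held 28.6 to 48.8% of a library's FPKM. It is not stated whether each library is from its own mouse, so p-values measure the spread between these libraries. Smad4, the targeted gene, fell in both mutant groups. It had 11.2, 10.2 and 9.95 FPKM in the double mutants, against 47.5, 58.8 and 49.8 FPKM in controls (log2 fold change -2.21, limma adjusted p = 0.00176), and 11.03, 9.96 and 10.8 FPKM in Smad4 KO crypts, against 46.1, 55.5 and 47.8 FPKM in controls (-2.13, limma adjusted p = 0.00664). In Smad4 KO that p was 0.0553 with the sex of the library as a covariate. A library of each mutant group stood apart in stromal and blood transcripts. Dcn, a fibroblast proteoglycan, had 27.2, 0.693 and 0.674 FPKM in double mutants 0, 1 and 2, against 0.784, 0.230 and 0.921 FPKM in controls, and 5.13, 1.24 and 47.8 FPKM in Smad4 KO libraries 0, 1 and 2, against 0.760, 0.217 and 0.883 FPKM in controls. The globin gene Hbb-b1 stood at 26.1 FPKM in double mutant 0, at 38.5 FPKM in Smad4 KO 2 and no higher than 4.67 FPKM elsewhere.

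Promoter sequences are shown for a few members because 21 members rose in the double mutants. RefSeq (GRCm38.p6) held a promoter for 68 of the 77 genes, and the window read was 250 bases before to 30 bases after the annotated start. The expression values were made on mm9, so these coordinates belong to the sequences only. Mrpl57, Mrps26 and Mrpl52 are the 3 risen members with the smallest p that had a single RefSeq entry with an ETS core. Mrps18a, Mrps18b and Mrps18c are paralogs of bacterial protein S18. Each sequence is written 5′ to 3′ on the strand of its gene. Capitals mark matches on either strand to the ETS core CCGGAAG, the paired NRF1 sites (GCGC, then any 2 bases, then GCGC again), the E-box CACGTG, the YY1 core AAGATGG or the CCAAT box. None of these motifs contains another, and neighbouring matches may overlap.
Mrpl57 (chr14:57825989-57826268, plus strand, GRCm38.p6): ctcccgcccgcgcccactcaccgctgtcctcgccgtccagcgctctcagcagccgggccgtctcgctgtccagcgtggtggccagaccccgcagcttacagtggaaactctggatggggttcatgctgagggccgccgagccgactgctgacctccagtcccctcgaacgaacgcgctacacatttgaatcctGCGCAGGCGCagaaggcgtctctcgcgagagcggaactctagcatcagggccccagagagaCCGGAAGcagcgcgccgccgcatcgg
Mrps26 (chr2:130563507-130563786, plus strand, GRCm38.p6): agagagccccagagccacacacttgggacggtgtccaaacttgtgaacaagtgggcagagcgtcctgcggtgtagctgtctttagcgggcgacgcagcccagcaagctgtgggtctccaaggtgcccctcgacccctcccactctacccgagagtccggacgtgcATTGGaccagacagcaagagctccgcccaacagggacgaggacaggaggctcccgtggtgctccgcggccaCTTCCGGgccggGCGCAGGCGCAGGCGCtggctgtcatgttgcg
Mrpl52 (chr14:54426659-54426938, plus strand, GRCm38.p6): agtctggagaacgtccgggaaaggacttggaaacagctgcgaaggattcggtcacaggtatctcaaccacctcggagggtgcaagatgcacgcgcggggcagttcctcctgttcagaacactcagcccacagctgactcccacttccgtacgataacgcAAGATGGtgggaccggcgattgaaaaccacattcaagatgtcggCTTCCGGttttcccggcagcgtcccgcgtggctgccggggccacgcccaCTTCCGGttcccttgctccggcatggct
Mrps18a (chr17:46110754-46111033, plus strand, GRCm38.p6): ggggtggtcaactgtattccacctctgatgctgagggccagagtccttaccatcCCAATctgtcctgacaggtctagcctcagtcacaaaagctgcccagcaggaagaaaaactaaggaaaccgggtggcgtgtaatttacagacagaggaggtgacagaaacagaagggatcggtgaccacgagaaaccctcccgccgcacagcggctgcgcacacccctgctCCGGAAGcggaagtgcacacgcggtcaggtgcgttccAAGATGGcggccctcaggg
Mrps18b (chr17:35916411-35916690, minus strand, GRCm38.p6): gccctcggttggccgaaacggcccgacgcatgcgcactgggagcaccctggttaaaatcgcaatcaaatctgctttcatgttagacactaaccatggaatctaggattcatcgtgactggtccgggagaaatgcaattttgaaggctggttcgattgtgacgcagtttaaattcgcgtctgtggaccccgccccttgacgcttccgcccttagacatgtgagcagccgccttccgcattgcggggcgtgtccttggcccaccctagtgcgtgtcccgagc
Mrps18c (chr5:100798509-100798788, plus strand, GRCm38.p6): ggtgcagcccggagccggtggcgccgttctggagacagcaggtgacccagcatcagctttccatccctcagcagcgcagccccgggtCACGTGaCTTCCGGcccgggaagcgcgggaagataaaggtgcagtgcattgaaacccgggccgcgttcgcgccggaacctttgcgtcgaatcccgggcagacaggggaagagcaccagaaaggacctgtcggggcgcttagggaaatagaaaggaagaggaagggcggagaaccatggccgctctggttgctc

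Counted from 0 at the annotated start, the ETS core of Mrpl57 began at base 4 and that of Mrps26 at base -14. Mrpl52 held 2, which began at bases -47 and 2. Mrps18a held an ETS core, a YY1 core and a CCAAT box, Mrps18c an ETS core beside an E-box, and Mrps18b none of the 5 motifs. An ETS core was found in 23 of the 68 member promoters (33.8%), against 20.1% of the 8717 tested genes with a promoter and 8.45% of all 32851 promoters. Among members that rose in the double mutants and the others, it stood in 9 of 16 and 14 of 52, paired NRF1 sites in 3 of 16 and 10 of 52, E-boxes in 3 of 16 and 2 of 52, YY1 cores in 4 of 16 and 6 of 52, and CCAAT boxes in 8 of 16 and 17 of 52. Paired NRF1 sites were found in 13 members (19.1%, against 14.8% of tested genes and 5.88% of all promoters) and a YY1 core in 10 (14.7%, against 7.45% and 5.61%). E-boxes occurred in 5 members (7.35%, against 11.6% and 6.79%), and 25 had a CCAAT box (36.8%, against 42.3% and 36.1%). These are matches of letters in a fixed window, given as a description with no test.

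In control crypts the member genes were expressed above most others. In the table of the Smad4 KO comparison the mean control level of the 76 tested members ran from 4.91 FPKM for Mrps33 to 140 FPKM for Mrpl52. Their median was 36.1 FPKM and their quartiles were 26.0 and 50.5 FPKM. The median of all genes tested was 13.0 FPKM, and 66 members lay above it. The 5 highest were Mrpl52, Mrpl12 of the stalk that recruits translation factors, Mrps21, Mrpl24 and Mrpl33. The highest tested member stood 28.5-fold above the lowest. Mrpl23 was the member left out by the filter of a mean of 1 FPKM over the 6 libraries of a table. It was listed at 0.151, 0 and 0.414 FPKM in double mutants, against 0, 0.611 and 0.289 FPKM in controls, and at 0, 0 and 0.287 FPKM in Smad4 KO crypts, against 0, 0.577 and 0.277 FPKM in controls. Why these values were so low was not tested, and they do not show that the gene is silent in crypts.

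In double mutant crypts the mitochondrial ribosomal protein genes were on the high side of the controls. Of 76 tested members, 21 rose, none fell and 55 did not pass the test (limma on log2(FPKM + 1), two-sided, Benjamini-Hochberg adjusted over 11762 genes, threshold 0.05; of the members, 32 had an unadjusted p below 0.05 upward and 0 downward, or 42.1% and 0%, against 18.2% and 18.4% of all genes). This is 27.6% of the members called higher, against 9.39% of all genes tested, while 9.09% of all genes were called lower. The median log2 fold change was 0.21 over the members and -0.0013 over all genes, and 66 members were positive and 10 negative. The changes were small: those of the 21 risen members ran from 0.34 to 0.75, or 1.28 to 1.71 times the control mean in FPKM. Calls moved with the libraries used. Leaving out double mutant 0, 1 or 2 gave 0, 3 and 0 members called higher, with member medians of 0.23, 0.19 and 0.26, and leaving out control 0, 1 or 2 gave 6, 11 and 7. Over all genes the shares called higher in these fits were 0.667%, 2.87% and 0.153% without double mutants 0, 1 and 2, and 5.61%, 5.84% and 4.55% without controls 0, 1 and 2. With the sex of the library as a covariate 13 members were called (17.1%), against 6.81% of all genes.

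Summed over the members, FPKM came to 4154, 4096 and 3806 in double mutants 0, 1 and 2, against 3048, 3554 and 3311 in controls 0, 1 and 2. By these sums the lowest double mutant was above the highest control. As a share of the library's FPKM the groups overlapped. Members held 0.571%, 0.714% and 0.640% in the double mutants, against 0.402%, 0.5905% and 0.507% in the controls, in the same order. Double mutant 0 was thus below control 1. The median member stood 0.23, 0.30 and 0.19 above the control mean on the log2 scale in the 3 double mutants, and at -0.10, 0.09 and 0.003 in the 3 controls. For 36 of 76 members (47.4%) all double mutants lay above all controls, against 21.3% of genes, and for no member did all lie below, against 21.3% of genes. In bulk crypts, a change in the number of cells of a type and a change in RNA per cell cannot be told apart.

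**Figure D1:**
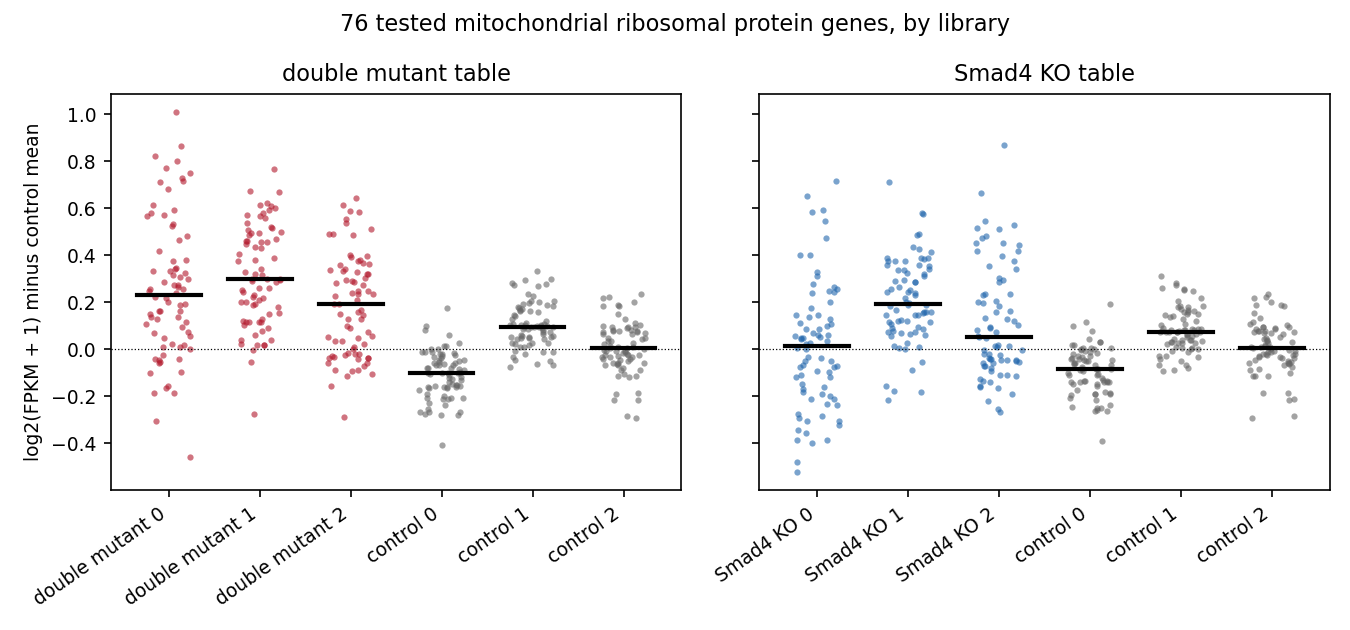
Member genes by library. Each point is a tested member's log2(FPKM + 1) minus the control mean of its table, by library, with the median marked. The medians of the 3 double mutants (0.23, 0.30 and 0.19) lie above those of the 3 controls of the same table (-0.10, 0.09 and 0.003).

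Of the small subunit, 7 of 26 tested members rose in double mutants (26.9%, against 9.39% of all genes), with a median of 0.20. Mrps10, at the head of the subunit, had 16.03, 18.4 and 16.8 FPKM in double mutants, against 10.5, 10.9 and 9.88 FPKM in controls (log2 fold change 0.66, SE 0.09, limma adjusted p = 0.0134). Its groups did not overlap, and Mrps10 had the smallest p of the members. Mrps12, the counterpart of the bacterial protein that shapes the accuracy of decoding, had 77.0, 72.6 and 68.3 FPKM in double mutants, against 50.8, 55.5 and 48.4 FPKM in controls (0.49, SE 0.10, limma adjusted p = 0.0261). Mrps28, the small-subunit member with the highest log2 fold change, had 75.03, 65.1 and 62.0 FPKM in double mutants, against 34.7, 49.2 and 43.3 FPKM in controls (0.67, SE 0.15, limma adjusted p = 0.0347). Its controls spread more widely, yet none reached the lowest double mutant. Mrps26, a protein added in mitochondria, had 45.2, 48.2 and 44.1 FPKM in double mutants, against 29.7, 33.3 and 30.6 FPKM in controls (0.54, SE 0.09, limma adjusted p = 0.0179). Mrps6 had 46.4, 41.5 and 39.2 FPKM in double mutants, against 23.4, 30.5 and 29.4 FPKM in controls (0.60, limma adjusted p = 0.0311). Mrps21, among the highest members in controls, had 108, 125 and 121 FPKM in double mutants, against 107, 142 and 124 FPKM in controls, and did not pass (-0.07, limma adjusted p = 0.743).

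Of the large subunit, 14 of 49 tested members rose in double mutants (28.6%, against 9.39% of all genes), with a median of 0.22. Mrpl52, the highest member in controls, had 296, 233 and 220 FPKM in double mutants, against 144, 153 and 142 FPKM in controls (log2 fold change 0.75, SE 0.14, limma adjusted p = 0.0231). Its double mutants were all higher than any control and lay farther apart than the controls did. Mrpl38, also added in mitochondria, had 72.3, 64.3 and 67.8 FPKM in double mutants, against 42.9, 46.4 and 44.9 FPKM in controls (0.60, SE 0.09, limma adjusted p = 0.0157). Mrpl57, a small mitochondria-specific protein, had 17.0, 13.96 and 14.1 FPKM in double mutants, against 8.20, 9.64 and 8.81 FPKM in controls (0.69, SE 0.11, limma adjusted p = 0.0178). For both genes the groups stood clear of each other. Mrpl20, the counterpart of a bacterial protein of early subunit assembly, had 159, 141 and 133 FPKM in double mutants, against 83.3, 94.8 and 102 FPKM in controls (0.62, limma adjusted p = 0.0256). Mrpl37 had 76.1, 72.2 and 67.6 FPKM in double mutants, against 50.1, 53.3 and 53.5 FPKM in controls (0.45, limma adjusted p = 0.0254). Mrpl36 had 82.7, 83.5 and 75.1 FPKM in double mutants, against 57.8, 61.3 and 58.0 FPKM in controls (0.44, limma adjusted p = 0.0270). No control reached a double mutant in any of these 3 genes. Mrpl33 had 173, 140 and 131 FPKM in double mutants, against 93.8, 105 and 108 FPKM in controls (0.52, limma adjusted p = 0.0472).

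The other 7 risen members, named after their values were seen, were Mrpl53, Mrpl17, Mrpl46, Mrpl54, Mrpl19, Mrpl34 and Mrps34, with log2 fold changes of 0.62, 0.43, 0.35, 0.51, 0.34, 0.55 and 0.44 in that order. Their limma adjusted p-values lay between 0.0334 and 0.0499. Mrpl12 had 156, 153 and 149 FPKM in double mutants, against 121, 141 and 115 FPKM in controls, and did not pass (0.28, limma adjusted p = 0.125) although the groups did not overlap. Mrpl24, Mrpl50 and Mrpl14 had the most negative values, -0.15, -0.10 and -0.10, with overlapping groups (limma adjusted p = 0.395, 0.676 and 0.595).

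**Figure D2:**
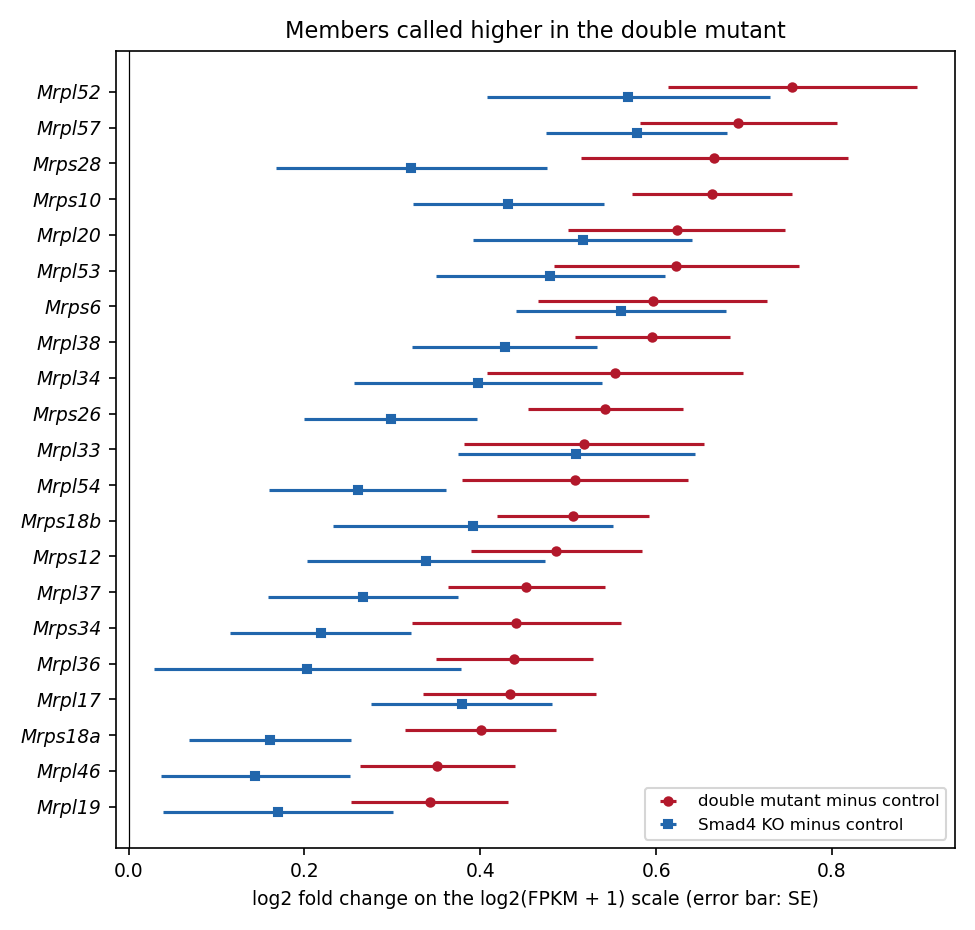
Risen members in double mutants. For the 21 members called higher, the log2 fold change (± SE) is drawn for double mutant against control, beside the value of the same gene in Smad4 KO against control. The double mutant values run from 0.34 to 0.75, and none of these genes passed the test in Smad4 KO.

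The risen members were found in each class of the ribosome. In double mutants, 12 of 47 tested members with a bacterial homolog rose (25.5%, median 0.22) and so did 9 of 28 mitochondria-specific members (32.1%, median 0.20). The share of all genes called higher was 9.39%. In the large subunit these counts were 7 of 30 (23.3%) and 7 of 19 (36.8%), and in the small subunit 5 of 17 (29.4%) and 2 of 9 (22.2%). Differences between the classes were not tested.

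**Figure D3:**
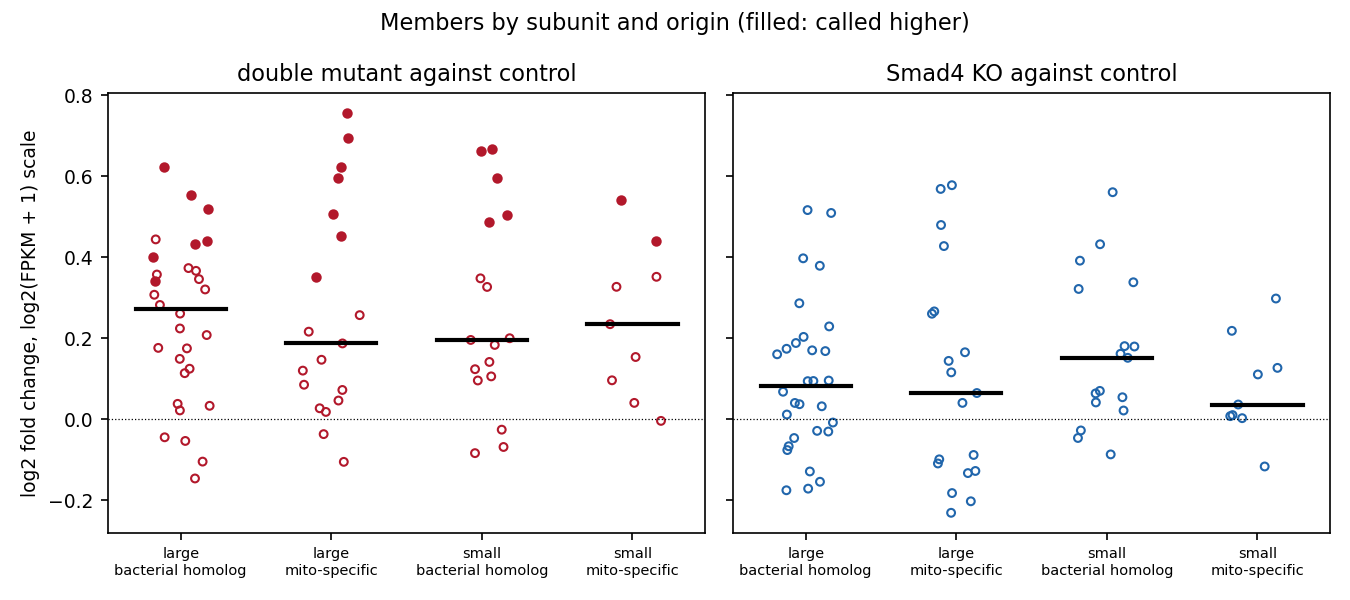
Log2 fold changes by class. Each point is a tested member, grouped by subunit and by whether the protein has a bacterial homolog, for double mutant and Smad4 KO against control. The double mutant medians of the 4 classes lie between 0.19 and 0.27 and overlap widely in their points.

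Of the 3 paralogs of S18, Mrps18a and Mrps18b passed the test in double mutants and Mrps18c did not; the difference between them was not tested. Mrps18a, whose protein sits in the large subunit, had 53.2, 57.6 and 51.3 FPKM in double mutants, against 39.7, 42.0 and 40.4 FPKM in controls, and rose (log2 fold change 0.40, SE 0.09, limma adjusted p = 0.0300). Mrps18b had 36.0, 39.8 and 39.1 FPKM in double mutants, against 28.2, 26.1 and 25.7 FPKM in controls, and rose (0.51, SE 0.09, limma adjusted p = 0.0195). Mrps18c had 75.01, 74.7 and 60.3 FPKM in double mutants, against 60.7, 85.1 and 77.8 FPKM in controls (-0.08, SE 0.16, limma adjusted p = 0.737). Its groups overlapped and its sign changed with the libraries used (0.02 without control 1 and 0.02 without double mutant 2). With 1 library left out in turn, Mrps18a was called in 0 of 6 fits and Mrps18b in 3. In Smad4 KO crypts Mrps18a averaged 43.7 ± 2.73 FPKM against 38.9 ± 0.61 in controls, Mrps18b 34.2 ± 7.13 against 25.6 ± 1.58, and Mrps18c 69.0 ± 10.6 against 71.3 ± 11.1 (SD, n = 3 each), and none passed the test (limma adjusted p = 0.389, 0.259 and 0.911).

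**Figure D4:**
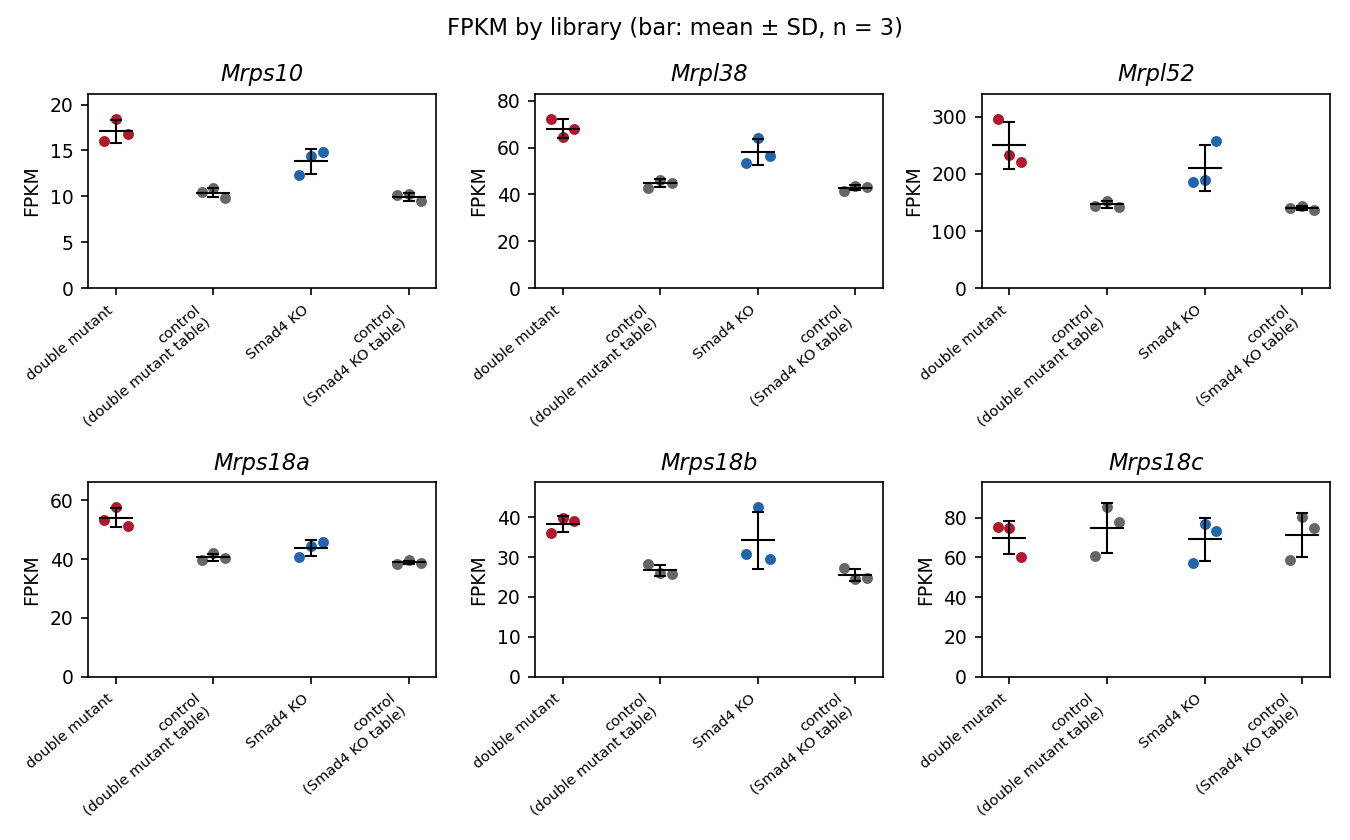
FPKM of 6 members by library. Points are libraries, with the mean and SD of each group (n = 3), for double mutants, Smad4 KO and the controls of each table. Mrps10, Mrpl38, Mrpl52, Mrps18a and Mrps18b lie above the controls in all 3 double mutants, whereas Mrps18c overlaps them.

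In Smad4 KO crypts no member passed the test. Of 76 tested members, 0 were called higher and 0 lower with limma (adjusted over 11849 genes), and 15 had an unadjusted p below 0.05 upward and 0 downward. These are 19.7% and 0% of the members, against 9.76% and 9.34% of all genes. Over all genes, 0.00844% were called higher and 0.0253% lower. The median log2 fold change was 0.07 over the members and -0.0032 over all genes, with 54 members positive and 22 negative. Without Smad4 KO 0, 1 or 2 the member median was 0.12, 0.03 and 0.09, and 0 members were called each time. The summed member FPKM was 3279, 3636 and 3562 in Smad4 KO libraries 0, 1 and 2, against 2956, 3355 and 3175 in controls 0, 1 and 2, with overlapping groups. All Smad4 KO libraries lay above all controls for 19 members (25%), against 14.2% of genes, and below for 1, Mrpl24, against 12.2% of genes.

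The 3 members with the largest changes in Smad4 KO were Mrpl57, Mrpl52 and Mrps6. Mrpl57 had 13.2, 12.3 and 14.1 FPKM in Smad4 KO crypts, against 7.95, 9.10 and 8.44 FPKM in controls (log2 fold change 0.58, SE 0.10, limma adjusted p = 0.111). Mrpl52 had 185, 190 and 257 FPKM in Smad4 KO crypts, against 140, 144 and 137 FPKM in controls (0.57, SE 0.16, limma adjusted p = 0.173), and Mrps6 had 40.3, 40.01 and 38.1 FPKM in Smad4 KO crypts, against 22.7, 28.8 and 28.2 FPKM in controls (0.56, SE 0.12, limma adjusted p = 0.125). In each of these the groups did not overlap, but the adjusted p missed the threshold. The most negative values were those of Mrpl42, Mrpl39 and Mrpl50 (-0.23, -0.20 and -0.18; limma adjusted p = 0.482, 0.378 and 0.662), with overlapping groups. Exact two-sided permutation tests could not go below 0.1 with 3 against 3, the value reached by every member whose groups did not overlap. A p above the threshold does not show that a gene was unchanged: the SE of the log2 fold change was 0.09 to 0.20 in Smad4 KO and 0.08 to 0.28 in double mutants. The mutant groups share their controls and sit in tables normalized apart, so the difference between them was not tested.

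The remaining machinery of mitochondrial translation was read from lists of textbook factors, whose shares called in double mutants stand beside the 9.39% higher and 9.09% lower of all genes. Of 6 mitoribosomal proteins with other symbols, 2 rose in double mutants (33.3%, median 0.22): Gadd45gip1, a large-subunit protein near the exit tunnel, had 29.8 ± 2.40 FPKM in double mutants against 18.4 ± 1.97 FPKM in controls (n = 3 each, ± SD; log2 fold change 0.67, limma adjusted p = 0.0183), and Chchd1 had 106 ± 9.001 against 80.2 ± 4.10 (0.40, limma adjusted p = 0.0456). Of 26 assembly and rRNA modification factors 7 rose and 0 fell (26.9% higher, median 0.27). C1qbp, a matrix protein needed for mitochondrial translation, had 233 ± 15.2 FPKM in double mutants against 149 ± 8.22 FPKM in controls (n = 3 each, ± SD; 0.64, limma adjusted p = 0.0190). Wbscr16 (0.73) and the RNA-binding protein gene Fastkd2 (0.57) rose too (limma adjusted p = 0.0203 and 0.0228). Of 18 translation factors 2 rose and 0 fell (median -0.01), a share of 11.1% that is close to that of all genes. They were the elongation factor gene Tsfm (0.52) and the amidotransferase subunit gene Qrsl1 (0.53; limma adjusted p = 0.0287 and 0.0483). In Smad4 KO 0 members of these lists passed, with medians of 0.03, 0.11 and -0.11 for the other proteins, the assembly factors and the translation factors. At an unadjusted limma p below 0.05 they held 2, 3 and 0 higher genes and 0, 1 and 1 lower genes, in the same order. The smallest p in each list there was that of Gadd45gip1 (0.47), C1qbp (0.41) and Mtrf1l (-0.36), with limma adjusted p of 0.162, 0.166 and 0.220.

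Of 12 genes of mitochondrial DNA expression and maintenance, 2 rose and 1 fell in double mutants (16.7% and 8.33%, against 9.39% and 9.09% of all genes). Top1mt, the mitochondrial topoisomerase, had 7.83 ± 0.46 FPKM in double mutants against 4.71 ± 0.84 FPKM in controls (n = 3 each, ± SD; log2 fold change 0.64, limma adjusted p = 0.0289). Polg, the catalytic subunit of the mitochondrial DNA polymerase, rose (0.36, limma adjusted p = 0.0356), and Polg2, its accessory subunit, fell (-0.54, limma adjusted p = 0.0407). Among 11 regulators of mitochondrial biogenesis, Ppargc1a, a coactivator of the oxidative programme, had 1.89, 2.47 and 1.69 FPKM in double mutants, against 9.49, 13.5 and 15.8 FPKM in controls (-2.19, SE 0.20, limma adjusted p = 0.00791). Its relative Pprc1 had 28.6, 27.4 and 29.0 FPKM in double mutants, against 19.3, 14.4 and 14.8 FPKM in controls (0.78, SE 0.13, limma adjusted p = 0.0177). In these coactivator genes the groups stood apart, in opposite directions. The other 9 regulators did not pass, and 1 of 11 in each direction (9.09%) is about the share of all genes. In Smad4 KO 0 genes of either list passed limma, and at an unadjusted p below 0.05 there were 3 higher and 0 lower in the first list and 1 of each in the second; Ppargc1a had 4.37, 2.13 and 1.46 FPKM in Smad4 KO crypts, against 9.20, 12.8 and 15.1 FPKM in controls (-1.93, limma adjusted p = 0.111), and Top1mt had a log2 fold change of 0.64 (limma adjusted p = 0.130).

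Nuclear genes for oxidative phosphorylation, the pathway whose mitochondrial subunits this ribosome makes, were called no more often in double mutants than genes in general. Of 74 tested, 0 rose and 3 fell in double mutants, with a median of -0.22 and 63 negative (limma; 0 higher and 15 lower at an unadjusted p below 0.05). The share called lower was 4.05%, against 9.09% of all genes, and at an unadjusted p it was 20.3%, against 18.4%. By library, the median gene of the list stood at -0.14, -0.16 and -0.29 in double mutants 0, 1 and 2, and at -0.19, 0.09 and 0.10 in controls 0, 1 and 2, so control 0 lay among the double mutants. Sdhc, a membrane anchor of succinate dehydrogenase, had 178, 219 and 190 FPKM in double mutants, against 274, 342 and 326 FPKM in controls (log2 fold change -0.68, limma adjusted p = 0.0289), and Atp5h of ATP synthase fell by 0.48 on the log2 scale (limma adjusted p = 0.0353). The other, Sdha, was named after its value was seen. In Smad4 KO 0 of 74 passed, with a median of -0.25 and 67 negative (limma; 0 higher and 19 lower at an unadjusted p below 0.05, or 25.7% lower, against 9.34% of all genes). Cytosolic ribosomal protein genes had 8 of 82 higher and 0 lower in double mutants, with a median of 0.18, and 0 of 80 in Smad4 KO, with a median of 0.04. The 9.76% called higher in double mutants is about the 9.39% of all genes, and the median gene of the list stood at 0.28, 0.18 and 0.10 in double mutants 0, 1 and 2, against -0.10, 0.19 and -0.10 in controls 0, 1 and 2. Control 1 was thus above double mutants 1 and 2. Rps29 (0.81) and Rpl34 (1.67) had the smallest p among the risen ones (limma adjusted p = 0.0155 and 0.0203). These genes have many near-identical copies in the genome, and Rpl23a was listed at only 1.71 FPKM in double mutants against 0.312 FPKM in controls, so their values are uncertain. Calls in these lists also moved with the libraries: with 1 library left out in turn, Ppargc1a was called in 5 of 6 fits, Pprc1, Gadd45gip1 and Rps29 in 4, C1qbp, Wbscr16 and Rpl34 in 3, Tsfm in 2, Sdhc, Atp5h, Fastkd2, Top1mt and Qrsl1 in 1, and Chchd1, Polg and Polg2 in 0. The largest limma adjusted p among these fits was 0.0526 for Ppargc1a and 0.0784 for Gadd45gip1.

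**Figure D5:**
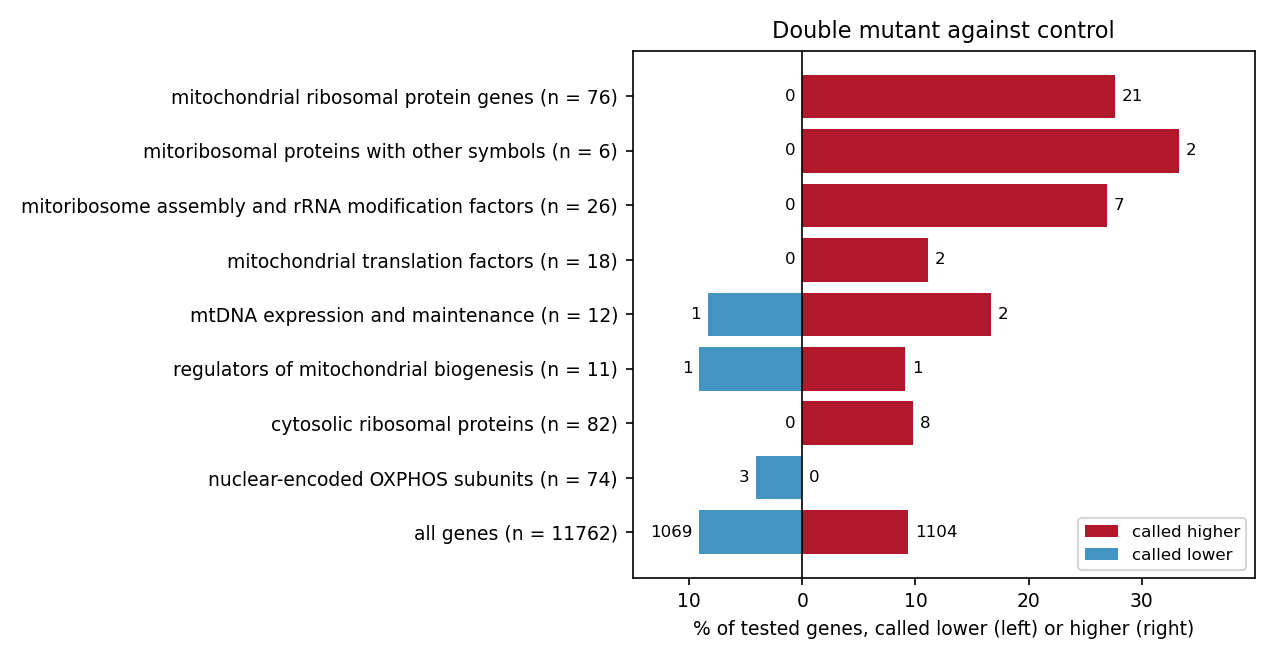
Called genes by list. Bars give the percentage of tested genes called higher and called lower in double mutants for the mitochondrial ribosomal protein genes, the lists of related genes and all genes. The member bar stands at 27.6% higher and 0% lower, beside 9.39% and 9.09% for all genes.

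Cell type markers also moved in double mutants. Of 7 enterocyte markers 6 fell, and their summed FPKM was 896 to 1770 in double mutants against 2921 to 8474 in controls. Of 9 immune markers, 7 were tested and 5 fell (summed FPKM 126 to 266 against 237 to 553). Most of that sum was H2-Aa, which did not pass. It had 82.9, 245 and 175.5 FPKM in double mutants, against 230.6, 140.1 and 402.9 FPKM in controls. The stem cell receptor Lgr5 rose, as 1 of 5 crypt base markers, whose sum was 7443 to 13990 FPKM against 8584 to 25200 FPKM in controls. Most of that sum was Lyz1, with 13180, 6217 and 11090 FPKM in double mutants, against 24140, 7709 and 7939 FPKM in controls. Lyz1, Olfm4, Ascl2 and Axin2 each overlapped between the groups. Both cycling markers overlapped between the groups, and none of the 5 epithelial markers passed. Stromal and vessel markers summed to 1.76 to 43.6 FPKM in double mutants against 0.489 to 1.97 FPKM in controls, and blood markers to 0.773 to 26.2 FPKM in double mutants against 1.22 to 4.68 FPKM in controls. No marker was at 0 in every library. In Smad4 KO no marker passed, and the enterocyte sum ran from 802 to 12850 FPKM against 2833 to 8124 FPKM in controls. Smad4 KO 0 stood apart from Smad4 KO 1 and 2. The enterocyte marker Fabp1 had 4447, 228.8 and 504.8 FPKM in Smad4 KO 0, 1 and 2, against 653.7, 1017 and 2025 FPKM in controls. The crypt base marker Olfm4 had 208.1, 858.7 and 982.5 FPKM there, against 980.9, 1435 and 584.8 FPKM in controls. Xist and Y-linked transcripts put 2 female and 1 male libraries in each mutant group and 1 female and 2 male in the controls. The part of cell composition and of sex in the member changes was not tested beyond the covariate fit given above.

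The libraries were made with a kit that does not keep strand, so strand cannot assign reads from bases that overlapping genes share. Overlap is given in bases of the gene table, and how much of it lies in exons was not examined. In the RefSeq gene table of GRCm38.p6, 25 of 77 members overlap another gene, 9 of them among the 21 that rose. Noncoding genes and pseudogenes are counted too, as are overlaps as short as 14 bases. The share of all genes with an overlap is not given here, so these counts show no excess among the members. The risen Mrps6 overlaps Slc5a3 over 29138 bases, and Slc5a3 had 3.44 FPKM in double mutants against 2.15 FPKM in controls (log2 fold change 0.49, limma adjusted p = 0.0413). Mrps18a overlaps Rsph9, which was under 1 FPKM in both groups, and Mrpl57 overlaps Ska3, which did not pass (0.40, limma adjusted p = 0.133).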

How the data were processed

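RNA was measured in 9 libraries of jejunal crypts, 3 per group. The deposited values are FPKM, made by the authors with TopHat2 2.1.1, Cuffnorm 2.2.1 and Cuffdiff 2.2.1 on mm9, per the submitters' processing notes. No source used here names their annotation. The same controls differ between the 2 tables by a constant factor for each library (1.031, 1.06 and 1.043 for controls 0, 1 and 2). Reads per gene cannot be recovered from FPKM, so depth is unknown and counting intervals are left out.

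The tables were fitted apart from each other, on log2(FPKM + 1), by limma 3.58.1 (R 4.3.3) with a mean-variance trend. Genes averaging under 1 FPKM over a table's 6 libraries were left out. Fold changes are on that log2 scale, which understates those of low genes. Two-sided p-values were Benjamini-Hochberg adjusted over all genes tested, with a threshold of 0.05. The script was tested on simulated data, where it called 49.3% of 2-fold changes in the Smad4 KO setting and 73.1% in the double mutant setting. Changes below 2-fold, such as those of the risen members, were not simulated. Exact permutation tests covered single genes. Motifs, neighbours and overlaps came from RefSeq tables of GRCm38.p6, read with Python 3.11.15.

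The members, lists, motifs and tests were chosen with earlier results of these data known. Named members were, per comparison, the 10 called with the smallest p, the 3 largest and 3 most negative changes, the 5 highest in controls, those under the filter, Mrpl12 and the Mrps18 paralogs. From each list of related genes, up to 3 called members with the smallest p were named, or the 1 with the smallest p where none was called, and up to 2 called from the lists of cytosolic ribosomal proteins and oxidative phosphorylation. Alternatives covered the pseudocount, the filter, the scaling, the trend, a replicate block, each library left out and, added after seeing the data, the sex of the library.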

Additional observations from a re-analysis of the deposited data

How the results depend on the processing

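The member median stayed positive under all 15 alternatives in each comparison, from 0.15 to 0.30 in double mutants and from 0.03 to 0.14 in Smad4 KO. No member was called in Smad4 KO under any of them. In double mutants the number of members called higher was 21 with pseudocount 0.1, 19 with pseudocount 5, 14 without a filter, 22 from a mean of 5 FPKM, 20 with median-of-ratios scaling, 25 with quantile normalization and 16 without the trend. These were 27.6%, 25%, 18.2%, 28.9%, 26.3%, 32.9% and 21.1% of the members, against 9.60%, 9.26%, 4.29%, 11.2%, 9.95%, 10.8% and 8.45% of all genes, in the same order. It was 13 with sex as a covariate, an alternative chosen after seeing the data, of which 11 were among the 21. With 1 library left out it ran from 0 to 11. Of the 21, 9 were called in none of these 6 fits and none in all 6; Mrps10, Mrpl38 and Mrpl57 were called in 4. Genes called in all ran from 18 to 688 higher and 12 to 898 lower in those fits, the member median from 0.15 to 0.30, and in Smad4 KO genes ran from 2 to 8 higher and 3 to 8 lower. Genes called lower in double mutants numbered 621 without a filter. Genes called higher in Smad4 KO, 1 as reported, numbered 3 with pseudocount 0.1, 0 with pseudocount 5, 2 from a mean of 5 FPKM, 4 with quantile normalization and 0 with sex as a covariate. The cause of these shifts was not tested.

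Whether the replicate numbers pair the samples is not known. Same-numbered libraries deviated with correlations of -0.111, 0.223 and -0.099 in Smad4 KO and 0.072, 0.132 and 0.037 in double mutants. Libraries of different number gave -0.149 to 0.211 in Smad4 KO and -0.108 to 0.032 in double mutants. In double mutants each same-numbered value was thus above every other one. With the replicate block 7 members (9.21%) and 732 genes (6.22%) were called higher in double mutants, so that the shares stood close, and 0 genes higher and 1 lower in Smad4 KO.

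Some changes that passed no test turned sign. With 1 library left out, the log2 fold change in double mutants ran from -0.101 to 0.0144 for Mrpl39, -0.172 to 0.0308 for Mrps21, -0.222 to 0.0192 for Mrps18c, -0.212 to 0.0421 for Mrpl50, -0.205 to 0.0137 for Mrpl14 and -0.0551 to 0.202 for Mrpl42. In Smad4 KO it ran from -0.176 to 0.0843 for Mrps18c and -0.0526 to 0.131 for Mrps21. Quantile normalization gave 0.00578 for Mrpl39 and 0.00864 for Mrps21 in double mutants, and 0.0187 for Mrps18c in Smad4 KO. Counted for each named gene under each alternative, 156 values in double mutants lost their call and kept their direction. A gene can be counted more than once here.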

Other observations

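Many member genes start close to a neighbour on the opposite strand, and whether they share a promoter was not tested. In the RefSeq table of GRCm38.p6, 25 of 68 members (36.8%) had a gene on the opposite strand that starts within 1000 bases upstream, against 17.9% of the 8717 tested genes with a promoter, and 6 of these 25 rose in double mutants. Of the neighbours, 23 were tested in double mutants, with 2 higher, 1 lower and a median log2 fold change of 0.21. Of these 23, 21 were not members themselves, with 1 higher and 1 lower. The neighbours were thus called no more often than the 9.39% higher and 9.09% lower of all genes. The median of these 21 was 0.21, against 0.21 over the members and -0.0013 over all genes. That difference from all genes was not tested. Sars2, the mitochondrial seryl-tRNA synthetase gene beside Mrps12, rose (0.44, limma adjusted p = 0.0204), and Mrpl46, itself a member, stands beside Mrps11. Klc4, beside Mrpl2, fell (-0.71, limma adjusted p = 0.0341). These neighbours were chosen after their values were seen.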
